A study of Caenorhabditis elegans with 2 samples.

Results

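The genes described here encode 9 subunits of eukaryotic translation initiation factor eIF3 in the nematode Caenorhabditis elegans. They are eif-3.B, eif-3.C, eif-3.D, eif-3.E, eif-3.F, eif-3.G, eif-3.H, eif-3.I and eif-3.K, taken by name from 19985 annotated protein-coding genes. The names were listed with earlier results of these data known, and 4 further subunit genes outside the list are given below for comparison. The measurement was chromatin immunoprecipitation followed by sequencing (ChIP-seq) of Y116A8C.19, a protein of the worm fused at its C terminus to GFP and FLAG, expressed from an integrated transgene and immunoprecipitated with an antibody to GFP. All worms were hermaphrodite L1 larvae of strain OP532, whose genotype is unc-119(tm4063) III; wgIs532, collected whole 6 hours after synchronization by starvation following bleaching. The design has a single group of 2 biological replicates, both with the transgene and the unc-119 allele, and no group lacking the tagged protein was analysed here. The promoter that drives the transgene is not stated in the labels, and whole larvae were used, so the lists do not say in which cells a region was bound.

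eIF3 is the largest of the initiation factors. It binds the small ribosomal subunit, helps to load the initiator tRNA and the mRNA, and keeps the ribosomal subunits apart until a start codon is found. Subunits b, g and i form a module around the scaffold protein b, while c, e, f, h and k belong to a group of subunits with PCI or MPN domains, the domain types also found in the proteasome lid and the COP9 signalosome. Worm genes often lie in operons, in which several genes are transcribed from the promoter of the first and the RNA is cut by trans-splicing. An annotated 5′ end can for that reason lie downstream of the start of transcription.

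The sequence below the strongest region of the set is shown first. It holds a copy, with 1 mismatch, of an element found under many other binding sites. The element, CTAGGCCA (TGGCCTAG on the other strand), is the 8-base word with the largest excess within 75 bp of the summits of 196 thresholded peaks that lie in no eIF3 window. As an exact match it was found there in 23.5% of peaks and in 0.51% of 392 flanking windows 500 bp away. With up to 1 mismatch it was found in 36.7% of those peaks. The share was 4.41% for windows of the same length centred 250 bp upstream of all protein-coding genes. The eif-3.B window is chrII:14795084-14795234 (ce11, + strand), centred on the summit shared by the pooled list and replicate 2. The eif-3.D window, chrIII:8971607-8971757 (− strand, that of the gene), surrounds the replicate 2 summit and is shown as the only other member summit window with a copy. The eif-3.G window, chrII:8442432-8442582 (+ strand), surrounds the replicate 1 summit, one of the weakest regions at a member, and holds none. Capitals mark copies of the element with up to 1 mismatch on either strand, and none of the windows touches an annotated gene.

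eif-3.B: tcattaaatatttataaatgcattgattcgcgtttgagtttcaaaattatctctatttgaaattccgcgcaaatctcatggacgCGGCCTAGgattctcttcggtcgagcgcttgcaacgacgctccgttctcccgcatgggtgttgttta
eif-3.D: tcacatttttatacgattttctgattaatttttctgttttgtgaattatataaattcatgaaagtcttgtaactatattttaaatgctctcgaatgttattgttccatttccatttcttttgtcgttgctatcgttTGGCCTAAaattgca
eif-3.G: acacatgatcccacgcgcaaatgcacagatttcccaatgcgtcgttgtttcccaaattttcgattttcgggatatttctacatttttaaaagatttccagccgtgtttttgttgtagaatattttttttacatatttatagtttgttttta

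The 9 genes differed in their listed regions: eif-3.B carried a very strong region and eif-3.E one just past the threshold. At eif-3.C and eif-3.H there were weaker pooled regions below the threshold. The remaining 5 had regions in the replicate lists alone or in no list. Each promoter window covered the 1000 bp before an annotated 5′ end and the first 200 bp after it, and a region was counted by its summit. Of the 9 genes, 2 (eif-3.B and eif-3.E) had a peak of the authors' IDR-thresholded list in the window, where 1.18% of all protein-coding genes had one (IDR is the irreproducible discovery rate, used to choose peaks that the replicates share). In the pooled list of 2689 regions, called on both replicates together, 4 genes (eif-3.B, eif-3.C, eif-3.E and eif-3.H) had a region, against 6.66% of protein-coding genes. The pooled list holds peaks and background, with 2491 regions left out of the thresholded list. The replicate lists also hold peaks and background and are much longer, with 22595 and 22358 regions. In replicate 1, 7 of the 9 had a region (30.1% of protein-coding genes) and in replicate 2, 6 of the 9 (28.9%). Regions of both replicates that overlapped each other lay in the windows of 5 genes, eif-3.B, eif-3.C, eif-3.D, eif-3.E and eif-3.G, against 10.9% of protein-coding genes. Among the best 1000 regions of each list, 3 of the 9 had one in replicate 1 (3.46% of protein-coding genes) and 2 of the 9 in replicate 2 (2.77%). Every such share of the 9 was above that of all protein-coding genes, but the genes were listed with earlier results of these data known, so the counts are a description only.

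**Figure D1:**
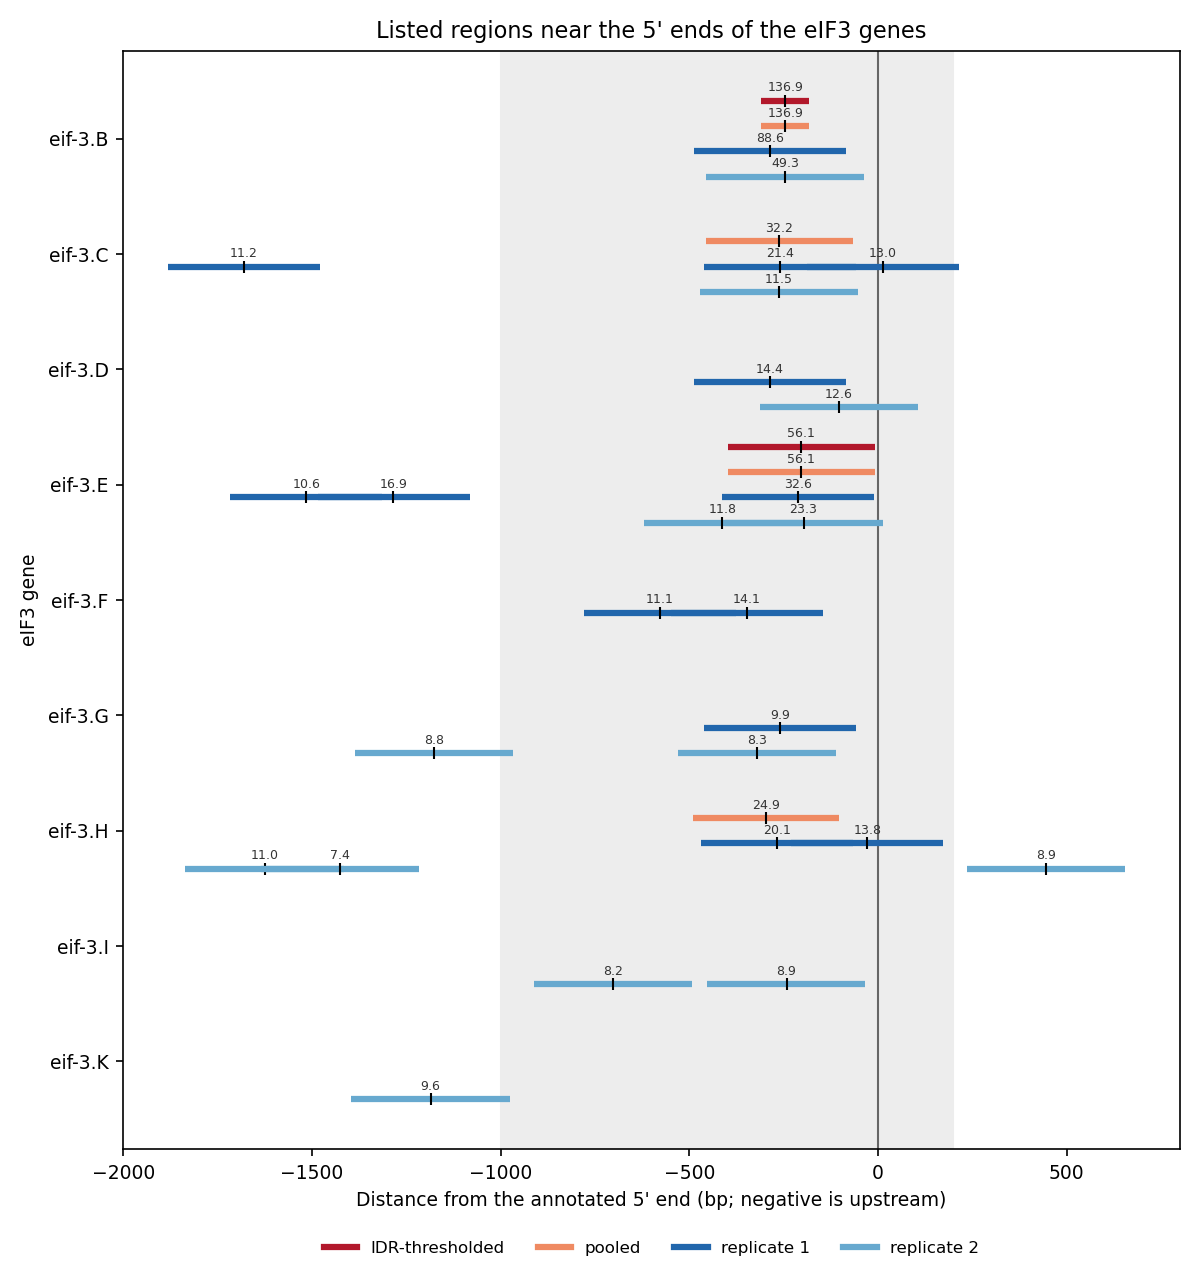
Regions of the 4 lists near the 5′ end of each eIF3 gene, with distance from the 5′ end in bp on the x axis and genes on the y axis. Bars are regions, ticks their summits, numbers the authors' signal within each list, and grey the promoter window. Summits of the pooled list lie from -296 to -203 bp at eif-3.B, eif-3.C, eif-3.E and eif-3.H, and eif-3.K has no region in its window.

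eif-3.B (WBGene00001225) encodes the scaffold subunit that holds the g and i subunits, and its gene lies on chromosome II from 14795404 to 14798235 on the + strand. The signal of its region was 136.9 in the pooled list, 88.6 in replicate 1 and 49.3 in replicate 2. Each value is in the authors' units, whose scale is not given in the sources used here, so signals are ranked within a list and not compared between lists. By rank, eif-3.B stood high in every list: 21 of 2689 pooled regions, 17 of 22595 in replicate 1 and 25 of 22358 in replicate 2. Of the 1331 protein-coding genes with a pooled region in their window, 98% had a weaker strongest region. The region of the thresholded list ran from 14795095 to 14795222, a width of 128 bp where most regions of that list were 390 bp wide. Its summit lay at -245 bp from the 5′ end, at the same base as in replicate 2, and 41 bp from the summit of replicate 1. No other annotated gene had this summit in its promoter window. The neighbour upstream, Y54E2A.10, ends 2748 bp away on the same strand.

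eif-3.E (WBGene00001228) encodes a PCI domain subunit and lies on chromosome I from 10640465 to 10642281 on the − strand. Signal was 56.1 in the pooled list, 32.6 in replicate 1 and 23.3 in replicate 2, with ranks of 188, 233 and 181. Both replicates thus ranked it near 200, and it was among the weakest peaks of the thresholded list. The weakest peak of that list had a signal of 55.0 and the strongest pooled region left out of it 54.9, so eif-3.E lay close to the threshold. The summit was at -203 bp in the pooled list, at -212 bp in replicate 1 and at -197 bp in replicate 2, and the replicate summits were 15 bp apart. It also lay in the window of the divergent gene B0511.17, at -545 bp, but eif-3.E was the nearest protein-coding gene. A second, weak replicate 2 region (signal 11.8, rank 4857) had its summit at -412 bp from eif-3.E and nearer to B0511.17, at -336 bp.

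eif-3.C (WBGene00001226) encodes another PCI domain subunit of the core complex and lies on chromosome I from 9976426 to 9979662 on the − strand. Its pooled region had a signal of 32.2 and rank 693, slightly above 30.8, the median strongest signal of protein-coding genes with a pooled region. Replicate 1 gave a signal of 21.4 at rank 836, and replicate 2 gave 11.5 at rank 5571. The replicates thus differed widely in rank, yet their summits lay 4 bp apart, at -259 and -263 bp. The authors' −log10 q-value was 0.377 in the pooled list, against 2.66 for eif-3.B. It was 0.711 in replicate 1 and 0.136 in replicate 2, against 2.71 and 2.20 for eif-3.B. A further weak replicate 1 region had its summit 13 bp inside the gene (signal 13.0, rank 8564). No other gene shared these summits.

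eif-3.H (WBGene00001231) encodes an MPN domain subunit and lies on chromosome I from 4444719 to 4446613 on the + strand. Its pooled region was among the weakest in that list, with a signal of 24.9 and rank 2496. The authors' −log10 q-value there was 0.0236, against 2.66 for eif-3.B. In replicate 1 the signal was 20.1 at rank 1130, with a second region of signal 13.8 at -28 bp. Replicate 2 had no region in the window, and its nearest one lay 446 bp inside the gene with a signal of 8.88. The region of replicate 1 thus had no counterpart in replicate 2. The pooled summit, at -296 bp from eif-3.H, was only 74 bp upstream of the divergent gene C41D11.3, so eif-3.H was not the nearest gene.

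**Figure D2:**
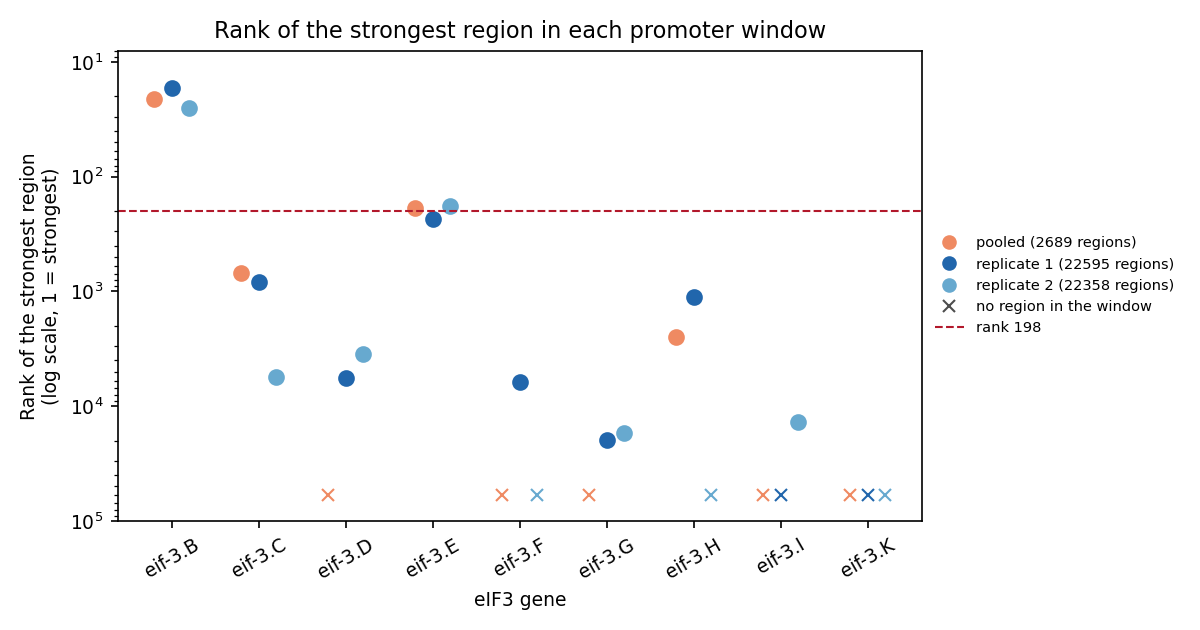
Rank of the strongest region in the promoter window of each eIF3 gene (log scale, 1 at the top) in the pooled list and in each replicate; crosses mark windows without a region. eif-3.B ranks from 17 to 25 and eif-3.E from 181 to 233, while eif-3.C ranks 836 in replicate 1 and 5571 in replicate 2.

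Members with replicate regions only were eif-3.D, eif-3.F, eif-3.G and eif-3.I, with −log10 q-values from 0.022 to 0.197. Among them, eif-3.D and eif-3.G had a region in both replicates. eif-3.D (WBGene00001227) encodes a subunit known in human cells to bind the cap of certain mRNAs, and lies on chromosome III from 8969635 to 8971578 on the − strand. Signal there was 14.4 at rank 5659 in replicate 1 and 12.6 at rank 3541 in replicate 2. The regions overlapped, but their summits were 183 bp apart, at -287 and -104 bp, in the short stretch shared with the divergent gene R08D7.4. The nearest gene was R08D7.4 in replicate 1, at -27 bp, and eif-3.D in replicate 2. eif-3.G (WBGene00001230), for the RNA-binding subunit of the b, g and i module, lies on chromosome II from 8442767 to 8444175 on the + strand. Its regions were near the bottom of both lists, with a signal of 9.92 at rank 19865 in replicate 1 and 8.27 at rank 17125 in replicate 2, and summits at -260 and -319 bp.

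The other 3 members had a region in 1 replicate or in none. eif-3.F (WBGene00001229), for the second MPN domain subunit, lies on chromosome II from 9331643 to 9333970 on the + strand. It had replicate 1 regions at -347 bp (signal 14.1, rank 6175) and at -577 bp (11.1, rank 14480) and no replicate 2 region. eif-3.I (WBGene00001232) encodes a WD repeat subunit bound to b and lies on chromosome I from 2485861 to 2489787 on the + strand. It had replicate 2 regions at -242 bp (signal 8.94, rank 13631) and at -701 bp (8.20, rank 17479) and none in replicate 1, and both were nearer to the divergent mitochondrial transporter gene abtm-1, the first at -228 bp and the second 231 bp inside it. eif-3.K (WBGene00001233), for a further PCI domain subunit, lies on chromosome V from 12954002 to 12955229 on the + strand and had no region in its window in any list. The closest upstream was a replicate 2 region at -1185 bp with a signal of 9.58, and its summit lay within the upstream gene pqn-68, whose end is 793 bp from eif-3.K. Of the module formed by b, g and i, the gene for b thus carried one of the strongest regions of each list, while those for g and i had regions in the replicate lists alone.

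**Figure D3:**
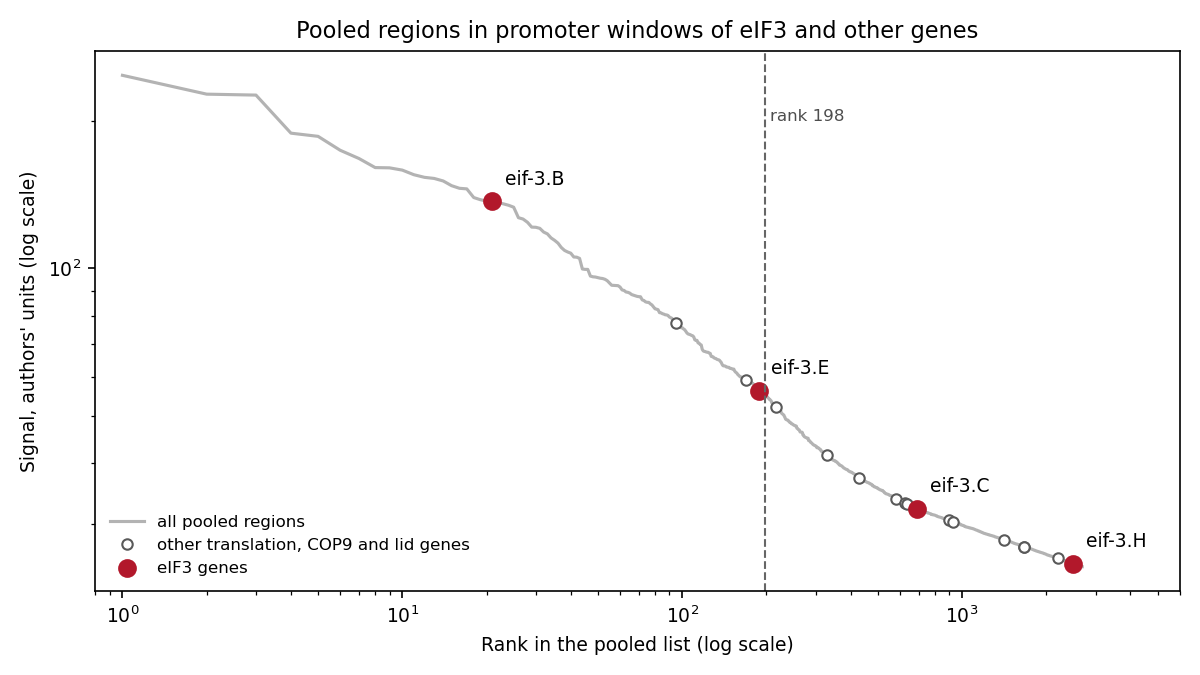
Signal (authors' units, log scale) against rank (log scale) for all 2689 pooled regions, as a grey line; filled circles are eIF3 genes and open circles genes of the comparison lists with a pooled region in the promoter window. eif-3.B at 136.9 and eif-3.E at 56.1 lie left of the dashed line, the last rank of the thresholded list, and eif-3.C at 32.2 and eif-3.H at 24.9 lie right of it.

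The pooled regions sat at similar places upstream of the 4 genes that had one. Summits were at -203 bp for eif-3.E, -245 bp for eif-3.B, -261 bp for eif-3.C and -296 bp for eif-3.H. Among the 1331 protein-coding genes with a pooled region, the strongest had a median distance of -260 bp with quartiles of -505 and -120.5 bp, and 17.4% lay from 200 to 300 bp upstream, a band chosen after the members' values were seen. Over the whole genes, past the window, neither the thresholded nor the pooled list had a region in any of the 9. The replicate lists had 4 regions there in replicate 1, at eif-3.B, eif-3.C, eif-3.E and eif-3.I, and 4 in replicate 2, at eif-3.B, eif-3.C, eif-3.H and eif-3.K, with signals of 14.8 at most.

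Most members had close neighbours on the same strand. An operon-like neighbour was defined as an adjacent protein-coding gene on the same strand with a gap of at most 500 bp, from the annotation alone and with no transcript evidence. By this rule 6 of the 9 members had one, where 34.3% of protein-coding genes did. eif-3.B was followed after 236 bp by tbc-20. eif-3.E headed a run with cdc-26, for a subunit of the anaphase-promoting complex, 231 bp on, and mrps-30, for a mitochondrial ribosomal protein. eif-3.G was followed by evl-20 after 131 bp, and eif-3.I by ddx-10, for a putative RNA helicase, after 188 bp. These 4 members were the first genes of their runs by this rule, so their windows are also the promoter windows of the runs as annotated. The runs depend on the gap allowed. With at most 200 bp, 4 of the 9 members had such a neighbour, and eif-3.B and eif-3.E did not. With at most 1000 bp, 7 did, and eif-3.G then followed lips-10, which lies 615 bp upstream on the same strand. None of the downstream genes tbc-20, cdc-26, mrps-30, evl-20 and ddx-10 had a thresholded or pooled region in its own window.

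In 2 runs the eIF3 gene came later. eif-3.C was the second of 4 genes, after the beta-catenin gene sys-1 with a gap of 400 bp and before T23D8.3 (110 bp) and tsp-7. Its pooled summit at -261 bp lay in the gap behind sys-1, and at sys-1 itself there was a single replicate 1 region of signal 11.9 at rank 11558. The region of that run, as defined with at most 500 bp, thus lay before its second gene. With at most 200 bp allowed, sys-1 falls outside the run and eif-3.C comes first. eif-3.F was the fourth of 6 genes, after egli-1, eat-3, a mitochondrial fusion gene, and wbp-2, and before scp-1 and ttll-12. No list had a region in the windows of egli-1, eat-3 or wbp-2, so the first promoter of that run, as annotated, had none. The window of eif-3.F held the 2 replicate 1 regions given above. Their summits, at -347 and -577 bp, lay within wbp-2, the upstream gene on the same strand, and not in the gap before eif-3.F. eif-3.D, eif-3.H and eif-3.K had no operon-like neighbour. Their downstream neighbours rpap-2, cps-6 and mpst-7 lie on the opposite strand and overlap the eIF3 genes by 20 to 28 bp, which the gaps of -24, -28 and -20 bp express.

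Several windows were shared with another gene. Of the 2 thresholded regions in member windows 1 was shared, as were 2 of the 4 pooled regions, 5 of the 10 replicate 1 regions and 4 of the 8 replicate 2 regions. The sharing genes were B0511.17 at eif-3.E, C41D11.3 at eif-3.H, R08D7.4 at eif-3.D and abtm-1 at eif-3.I, all of them divergent, and the non-coding gene D2013.13 at the weaker eif-3.F region. In such windows binding at the eIF3 gene and at its neighbour cannot be told apart. The strong eif-3.B region and the eif-3.C regions were not shared.

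The copy of the element at eif-3.B, shown in capitals above, runs from 14795168 to 14795175 and starts at -236 bp, beside the summit at 14795159. Against CTAGGCCA, with positions counted from 1 at the 5′ end of that word, it carries the change A8G. The eif-3.D copy starts at -43 bp and carries C1T. With up to 1 mismatch the element was found in 36.7% of the other thresholded peaks, in 6.22% of the 2491 pooled regions below the threshold, and in 4.41% of windows of the same length centred 250 bp upstream of all protein-coding genes. Among the 4 members with a pooled region, the summit window of eif-3.B held a copy and those of eif-3.C, eif-3.E and eif-3.H did not. A second word, ACTCCTCT (AGAGGAGT on the other strand), was the next in excess sharing no run of 5 bases with the first. As an exact match it was found in 18.9% of peaks against 0.765% of flanks. No summit window of a member held it with up to 1 mismatch. The word was found so in 37.8% of the other thresholded peaks, 10.9% of pooled regions below the threshold and 7.42% of those promoter windows. Elsewhere in the promoter windows, further copies with 1 mismatch were ACTCATCT at -747 bp of eif-3.B, ACTCCTCG 90 bp inside eif-3.E and GTAGGCCA at -509 bp of eif-3.I. Whole windows with up to 1 mismatch are common, at 26.2% of protein-coding genes for the first word and 48.1% for the second. The eif-3.E region, past the threshold in the pooled data, thus held neither word near its summit.

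The 4 eIF3 subunit genes outside the list had no thresholded or pooled region. egl-45, for the a subunit, had a replicate 2 region at -709 bp (signal 11.1, rank 6393), which lay only 76 bp upstream of the divergent gene kcmf-1. Its window held an exact copy of the second word, ACTCCTCT, at -814 bp. No other window of the 13 subunit genes held an exact copy of either word. Among whole windows of all protein-coding genes, 2.91% held an exact copy of the second word. The copy in the egl-45 window lies inside kcmf-1, which begins after a gap of 784 bp. That copy lay within 150 bp of the replicate 2 summit but not within 75 bp of it. The window of cif-1 held ACTCCTCC, with 1 mismatch, 22 bp inside the gene. eif-3.J, for a loosely associated subunit, had a region in each replicate, with signals of 16.8 and 7.88 and ranks of 2704 and 19461. These 2 regions overlapped, but their summits lay apart, at -726 bp in replicate 1 and -471 bp in replicate 2. eif-3.L and cif-1, the latter for a subunit that eIF3 shares with the COP9 signalosome, had no region in their windows in any list. Taking all 13 subunit genes, 2 (15.4%) had a thresholded peak, 4 (30.8%) a pooled region and 6 (46.2%) overlapping regions of both replicates.

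Other genes of translation and those of 2 complexes with PCI and MPN domains, the proteasome lid and the COP9 signalosome, were set beside them. Over all protein-coding genes, 1.18% had a thresholded peak and 6.66% a pooled region. Of 27 other initiation factor genes, 1 (3.7%) had a thresholded peak and 5 (18.5%) a pooled region. The thresholded peak was at drr-2, for a factor of the eIF4H type (signal 77.2, rank 95, -138 bp), and it also lay in the window of the histone methyltransferase gene set-16. Pooled regions without a thresholded peak lay at eif-1.A (33.2), mnk-1 (30.3), iff-2 (27.9) and eif-2Bdelta (27.0). Among 12 elongation and release factor genes none had a thresholded peak and 5 (41.7%) had a pooled region. That share was near the 44.4% of the 9 eIF3 genes. The 5 genes were eef-1B.1 (52.0), eef-1G (37.2), eef-1A.1 (33.8), eef-1A.2 (33.0) and erfa-3 (30.6). Of 10 proteasome lid genes 1 (10%) had a thresholded peak, rpn-11 (59.0), and 3 (30%) a pooled region, rpn-11, rpn-3 (41.6) and rpn-5 (25.5). Of 6 COP9 signalosome genes 1 (16.7%) had a pooled region, csn-1 (27.0), and none a thresholded peak. Apart from those at eif-2Bdelta and rpn-11, each of these regions also lay in the window of another annotated gene. The region at eef-1A.1 was nearer to rfc-4 (-131 against -410 bp) and that at csn-1 nearer to phf-14 (-184 against -558 bp). No gene of the comparison lists reached the signal of eif-3.B, and 2 of them, drr-2 and rpn-11, exceeded that of eif-3.E. Y116A8C.19 itself, on chromosome IV from 17039055 to 17039645, had no region in its promoter window in any list.

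**Figure D4:**
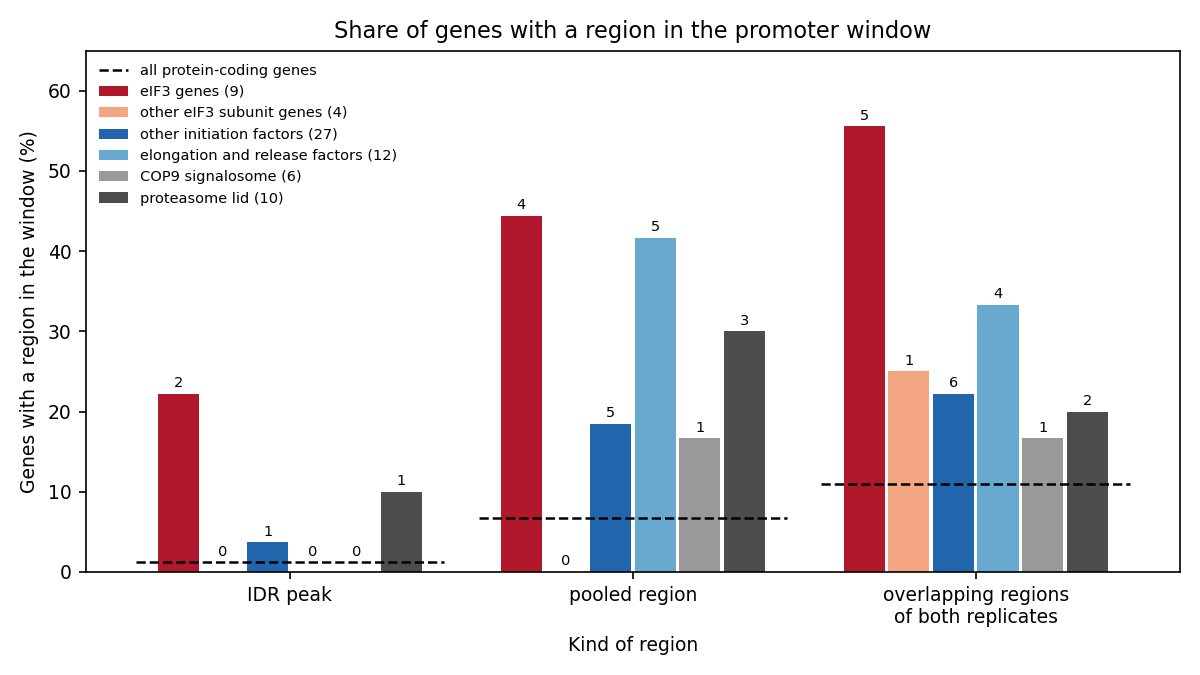
Share of genes (y axis, %) with an IDR-thresholded peak, a pooled region or overlapping regions of both replicates in the promoter window, by gene list, with the number of genes above each bar and list sizes in the key. Dashed lines give all protein-coding genes, at 1.18, 6.66 and 10.9%; the 9 eIF3 genes stand at 22.2, 44.4 and 55.6%.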

How the data were processed

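The files hold lists of regions from ChIP-seq of 2 replicates, and 4 lists on ce11 were used (thresholded, pooled and 1 per replicate). Per the accompanying notes, the authors made the replicate lists from each alignment and the pooled list from both, each with 1 further file that was also an input of their control-normalized signal, and derived the thresholded list from the other 3. The deposited lists give a signal and a −log10 q-value per region, both the authors' own. Aligner, peak caller and IDR threshold were not given in the sources used here. Depth is unknown, since the lists carry no counts of reads, and intervals are not given. Another 4 lists, on ce10, were not used, because coordinates were not converted between builds.

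Genes came from Ensembl release 115 and sequence from the RefSeq genome, both WBcel235 (ce11). Summits were assigned to promoter windows, ranked by signal within a list and matched between replicates by at least 1 bp of overlap. No statistical test was run, since there is 1 group and the genes, lists and elements were chosen with earlier results of these data known. Named genes are the 9 members, other subunit genes, genes sharing a summit, neighbours and operon-like runs, and list genes with a thresholded or pooled region. Of 30 other initiation factor symbols 27 matched the annotation, of 13 elongation and release factors 12, of 8 COP9 signalosome symbols 6, and all 10 of the lid. Window assignment and word search were tested on simulated data. Alternatives changed windows, 5′ ends, lists and gaps. Python 3.11.15, NumPy 2.4.6, pandas 2.3.3 and Matplotlib 3.10.9 were used.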

Additional observations from a re-analysis of the deposited data

How the results depend on the processing

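Of 40 values recomputed under an alternative, 32 stayed within 1.5 times the reported count. The 99 stronger thresholded peaks left 1 gene, eif-3.B, both with a peak and nearest to it, since eif-3.E ranked 188. With as many of the best regions of a single replicate as the thresholded list holds, leaving out each replicate in turn gave 1 to 2 genes for both counts, and eif-3.E was missing without replicate 2, where it ranked 233 in replicate 1. Keeping only the best 1000 regions left 3 genes in replicate 1, 2 in replicate 2 and 2 with overlapping regions of both, as shorter lists must. Exact matches of either word left 0 summit windows of pooled regions with a copy. The search for the inner 6 bases was chosen after seeing the data and gave 1, again eif-3.B. That copy was bound to be found again, since its mismatch lies outside the inner 6 bases. The inner bases of the first word, TAGGCC, were found in 31.1% of the other thresholded peaks and 3.57% of pooled regions below the threshold. They were found in 2.67% of windows of the same length upstream of all protein-coding genes. No paired analysis was possible because there is 1 group. Depth is unknown, so an absent region does not show that a gene was unbound.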
